A study of Mus musculus with 8 samples.

Results

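The 10 genes described here are those that carry a cell from growth in G1 into DNA synthesis: the D-type cyclins Ccnd1, Ccnd2 and Ccnd3, the E-type cyclins Ccne1 and Ccne2, the cyclin-dependent kinases Cdk2, Cdk4 and Cdk6, and the Cip/Kip inhibitors Cdkn1a (p21) and Cdkn1b (p27). They were chosen by symbol, and every probe set that the platform annotation assigns to one of these symbols was taken, which gave 28 of the 45037 probe sets tested. Each of the 28 names 1 gene alone, and the whole annotation names 18193 genes in this way. Messenger RNA was measured on 8 Affymetrix arrays in Lin-Sca+Kit+ cells, the fraction that holds haematopoietic stem cells, sorted from the fetal liver of C57/B6 mice, with the cells of 1 mouse on each array per the series' design text. The groups were ADAR1 -/- (KO, 3 arrays), ADAR1 +/- (HT, 3 arrays) and wild type (WT, 2 arrays). The HT and WT arrays together are called the 5 control arrays. No treatment is named in the labels, and the fetal age, the sorted cell numbers, the form of the ADAR1 allele and any shared litters were not found in the labels or the design text.

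In a dividing cell, mitogens raise the D-type cyclins, which bind Cdk4 or Cdk6 and begin to phosphorylate the retinoblastoma protein. Release of E2F factors from that protein raises cyclin E, and cyclin E with Cdk2 completes the phosphorylation and starts DNA replication. p21 and p27 bind these complexes and hold Cdk2 in check. Haematopoietic stem cells of the fetal liver are known to cycle actively, unlike most of those in adult marrow, and mice lacking all D-type cyclins, or both Cdk4 and Cdk6, die before birth with failing haematopoiesis. ADAR1 is the product of Adar, an enzyme that edits adenosines in paired RNA into inosines.

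The arrays were checked before the members were compared. The brightest Adar probe set read 59.7, 144 and 176 linear units on KO arrays, 13.1, 16.1 and 9.89 on HT arrays and 7.66 and 17.6 on WT arrays. Where these probes lie relative to the altered part of the gene was not found in the labels, and the level therefore does not check the genotypes. Of 11 measured stem and progenitor markers, 7 were above background on all 8 arrays, and Kit, on which the cells were sorted, read 9.33 to 23.5 linear units over all arrays. The background of an array was set at its brightest probe set among 27 that target bacterial transcripts, and lay at or below 9.29 linear units. The share of probe sets above it was 40.0% to 46.4% on KO arrays, 51.2% to 61.2% on HT arrays and 51.5% and 45.6% on WT arrays. Over all probe sets, which are not independent of one another, pairs of arrays correlated at 0.862 to 0.886 within KO, 0.968 to 0.973 within HT and 0.915 within WT. The ratio of the 3′ to the 5′ Gapdh control probe set, which rises as RNA is degraded, was 7.45, 8.73 and 7.67 on KO arrays, 5.78, 4.78 and 8.996 on HT arrays and 4.39 and 4.32 on WT arrays. It was higher on all KO than on both WT arrays and overlapped between KO and HT, and its part in any difference below was not tested. Sex was read from the array values, as female where Xist was above Eif2s3y, and this gave the sex covariate used below. KO array 1 and HT arrays 1 and 3 read as male. The other KO and HT arrays and both WT arrays read as female, so KO array 1 was the only male KO array. With 2 or 3 arrays a group, precision is limited by their number.

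Cyclin E1 was the 1 member gene whose transcript differed past the threshold, and it did so between KO and HT cells. Ccne1 fell in KO relative to HT cells on both of its probe sets, 6.29-fold on the first and 4.18-fold on the second. HT cells held the highest Ccne1 of the 3 groups, while KO and WT cells read closer to each other. No other member probe set passed in KO against HT. Across all probe sets 0.502% passed in this comparison, and 2 of the 28 member probe sets did, both of the same gene. In the lower direction 0.240% of all probe sets passed.

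The first Ccne1 probe set, 1416492_at, read 7.35, 8.13 and 9.83 linear units in KO cells, 52.6, 45.3 and 61.4 in HT cells and 21.7 and 13.2 in WT cells. Every HT array lay above every KO and WT array, and every KO array lay below both WT arrays. The KO values were near the limit of measurement, with 2 of 3 KO arrays above background. Mean log2 intensity was 3.07 ± 0.21 in KO (SD, n = 3), 5.72 ± 0.22 in HT (SD, n = 3) and 4.08 in WT (n = 2). KO minus HT was -2.65 ± 0.23 log2 units (limma standard error, as for every difference below), with an adjusted p of 0.00855. By p it ranked 13 among the probe sets lower in KO than in HT.

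The second Ccne1 probe set, 1441910_x_at, was the brighter of the pair and lay above background on all 8 arrays. It read 21.3, 14.5 and 17.6 linear units in KO cells, 60.3, 78.4 and 84.2 in HT cells and 25.3 and 19.2 in WT cells. HT arrays again stood above all others, whereas here the KO and WT arrays overlapped. KO minus HT was -2.06 ± 0.22 log2 units (limma, adjusted p = 0.0166). The ending x in an Affymetrix name marks probes that can also bind other transcripts. The call of this probe set was lost with quantile (adjusted p = 0.114) or cyclic loess normalization (0.128), an intensity trend (0.122), the sex covariate (0.0629) and without HT array 1 (0.0565), 2 (0.0904) or 3 (0.0891), over alternatives of this probe set from 0.0138 to 0.128, while the mean of both Ccne1 probe sets gave 0.00358. The call of the first probe set was lost without HT array 1 (0.0641) or 3 (0.0523), over alternatives from 0.00744 to 0.0641. The difference stayed below 0 under every alternative run for both. With a pseudocount of 32 it was smaller, at -1.07 log2 units on 1416492_at and -1.09 on 1441910_x_at.

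**Figure D1:**
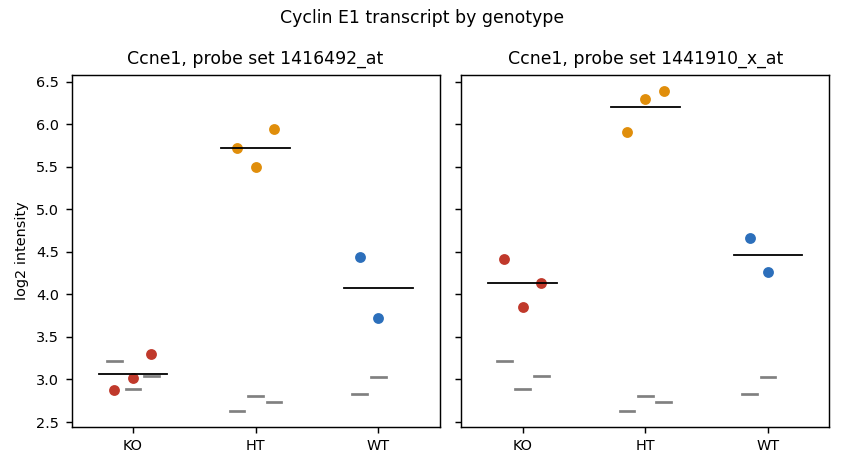
Log2 intensity of the cyclin E1 transcript on each array for its probe sets 1416492_at (left) and 1441910_x_at (right), with KO, HT and WT from left to right. Points are mice, black lines are group means and short grey lines mark the background of each array. The 3 HT arrays lie above all other arrays on both probe sets.

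Set against WT, Ccne1 gave differences that did not pass. KO minus WT was -1.01 ± 0.26 log2 units on 1416492_at (limma, adjusted p = 0.333, 95% interval -1.63 to -0.39) and -0.32 ± 0.24 on 1441910_x_at (adjusted p = 0.815, interval -0.90 to 0.25). HT minus WT was 1.64 ± 0.26 (adjusted p = 0.448, unadjusted p = 0.000468) and 1.74 ± 0.24 (adjusted p = 0.434, unadjusted p = 0.000205). By p these 2 probe sets ranked 28 and 11 among the probe sets higher in HT than in WT. In HT against WT 0.00222% of all probe sets passed, 1 in number, and 0 of the 28 member probe sets did by limma. Unadjusted p fell under 0.05 for 2 member probe sets, both of Ccne1 and higher in HT (5.37% of all probe sets, 2.59% in the higher direction). These comparisons share arrays, so their values are given side by side and not as separate support. KO against all 5 controls gave -2.00 ± 0.51 (adjusted p = 0.190) and -1.37 ± 0.53 (adjusted p = 0.396).

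Markers of other fetal liver cells differed between the same groups. The summed intensity of 7 hepatocyte and hepatoblast markers was 57.8 to 75.3 linear units in KO, 620.1 to 1070.05 in HT and 197 and 617 in WT cells, and 2 of the 7, Afp and Apoa2, passed in KO against HT. Afp, the fetal serum protein alpha-fetoprotein, read 22.9, 4.79 and 6.75 in KO, 617, 623 and 319 in HT and 75.9 and 321 in WT cells. The sum of 8 macrophage markers was 67.3 to 83.9 in KO, 334 to 467 in HT and 272 and 869 in WT cells, with Adgre1 at background on all arrays and 0 of 8 past the threshold in KO against HT. In KO against all controls 1 of them passed, Lyz2, which encodes lysozyme, at -2.54 ± 0.34 log2 units (limma, adjusted p = 0.0207). The sum of 6 erythroid markers was 582 to 640.2 in KO, 606 to 657 in HT and 294 and 352 in WT cells, so that it was higher on all HT than on both WT arrays but overlapped between KO and HT. It was also higher on all KO than on both WT arrays, and Gata1, the erythroid transcription factor, passed in KO against WT at 1.24 ± 0.15 log2 units (limma, adjusted p = 0.0355). Within this list Klf1 and Slc4a1 were higher on all HT than on all KO and WT arrays, as Ccne1 was. Their KO minus HT was -1.95 ± 0.77 and -0.97 ± 0.34 log2 units (limma, adjusted p = 0.419 and 0.383). Hba-a1, Epor, Alas2 and Gata1 lay above 0 in KO minus HT, at 0.12, 0.16, 1.04 and 0.50. The sum of 6 endothelial and stromal markers was 174 to 433 in KO, 123 to 187 in HT and 137 and 106 in WT cells. It was higher on all KO than on both WT arrays and overlapped between KO and HT, and none of the 6 passed. Kdr, 1 of them, was higher on all KO than on all control arrays, at 0.86 ± 0.21 log2 units against all controls (limma, adjusted p = 0.171). The part of these cells in the Ccne1 difference was not tested. In sorted bulk samples fewer cells of a type and less RNA per cell cannot be told apart.

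Ccne1 lies on chromosome 7, and the bases before its transcription start are shown because it is the member that passed. The window is chr7:38107491-38107740 on the minus strand of GRCm38.p6, from RefSeq, printed 5′ to 3′ up to the base before the start, with the GC box GGGCGG (searched on both strands) in capitals. The promoter table held windows for 7 of the 10 members, 9 windows in all.
Ccne1: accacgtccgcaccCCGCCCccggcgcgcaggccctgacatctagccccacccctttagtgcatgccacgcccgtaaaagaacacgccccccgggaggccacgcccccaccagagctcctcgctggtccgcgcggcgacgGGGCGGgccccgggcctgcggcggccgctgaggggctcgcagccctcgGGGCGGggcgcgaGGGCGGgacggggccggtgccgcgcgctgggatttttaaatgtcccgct
The GC box is the core of the sites bound by Sp1-type factors, and it was found 4 times here. Of 32851 windows of 250 bases in the table, 32.7% held it at least once and 4.09% held it 4 or more times. The E2F letters TTTCCCGC, TTTGGCGC, TTTGCCGC and TTTCGCGC, on either strand, were not in this window. They were in 1.86% of all windows and, among the members, in that of Cdk2. These matches describe letters and were not tested as sites.

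By the likeness of their levels over the 8 arrays, the genes nearest to Ccne1 (brightest probe set) were Gnpda1 (Pearson r 0.986), Ctdspl (0.984) and Bloc1s3 (0.971), out of 11882 genes above background on at least 3 arrays. Gnpda1 encodes a glucosamine-6-phosphate deaminase and Ctdspl a phosphatase of the small C-terminal domain family. Ctdspl read 21.5, 13.5 and 19.9 linear units in KO, 111, 149.8 and 140.2 in HT and 45.6 and 18.8 in WT cells. Ccne1 was taken for this search after its values were seen, and the arrays share genotype groups, so r is a description.

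Ccne2, the other E-type cyclin, had 1 probe set and was hardly detected. It read 4.72, 4.55 and 5.52 linear units in KO cells, 5.40, 6.04 and 5.41 in HT cells and 13.2 and 4.57 in WT cells. WT array 1 was the 1 array of 8 above background, so no fold change is given.

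In KO against all 5 controls 0 of 28 member probe sets passed, where 0.582% of all probe sets did, and in KO against WT 0 passed, where 0.326% did. At an unadjusted p under 0.05 limma gave 9 member probe sets of 5 genes against all controls (4 higher, 5 lower; 11.5% of all probe sets) and 4 of 4 genes against WT, all lower (7.63% of all, of which 2.63% higher and the rest lower). Several of these 9 come from the same gene, and neighbouring probe sets of a gene are not independent. KO and the 5 controls did not overlap on 5 member probe sets (8.19% of all probe sets, 3.89% higher and 4.30% lower in KO). These were 1417419_at of Ccnd1 and 1416124_at of Ccnd2, both higher in KO, and 1416492_at of Ccne1, 1416873_a_at of Cdk2 and 1435338_at of Cdk6, all lower in KO.

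**Figure D2:**
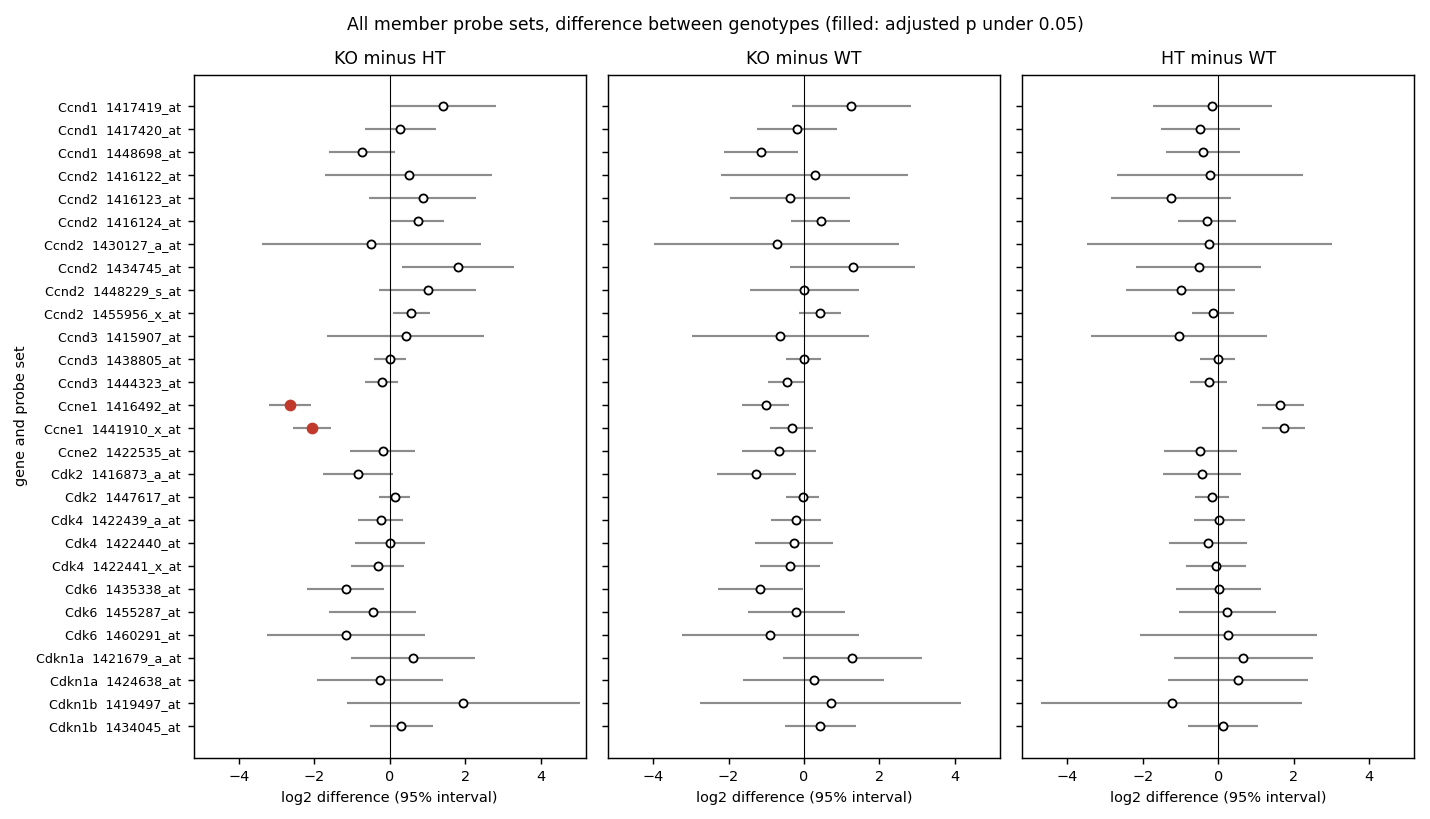
Log2 difference with its 95% interval for all 28 member probe sets in KO minus HT, KO minus WT and HT minus WT, from left to right. Filled points passed an adjusted p of 0.05: the 2 Ccne1 probe sets in KO minus HT, at -2.65 and -2.06. All other intervals belong to differences that did not pass. The Ccne2 probe set, 1438805_at and 1444323_at of Ccnd3 and 1447617_at of Cdk2 were at background on most or all arrays, so their points show no measured change.

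The D-type cyclins link growth signals to the cell cycle, and cyclin D2 (Ccnd2) had the most probe sets, 7, all above background on all 8 arrays. Their patterns over the arrays differed. On 1434745_at Ccnd2 read 323.9, 460.1 and 209.7 linear units in KO cells, 110.7, 68.0 and 97.4 in HT cells and 56.0 and 298 in WT cells. All KO arrays lay above the HT arrays and above WT array 1, and WT array 2 lay among the KO arrays. The difference was 1.81 ± 0.62 log2 units in KO minus HT (limma, adjusted p = 0.375) and 1.29 ± 0.70 in KO minus WT (adjusted p = 0.747).

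The brightest Ccnd2 probe set, 1416123_at, read 959.7, 1132 and 400.5 linear units in KO cells, 683, 449 and 229 in HT cells and 615 and 1569 in WT cells. The 3 groups overlapped on it. It differed by 0.88 ± 0.59 log2 units in KO minus HT and by -0.38 ± 0.66 in KO minus WT (limma, adjusted p = 0.571 and 0.921). Against HT, 6 of the 7 probe sets had a difference above 0 and 1430127_a_at one of -0.49 ± 1.22. On that probe set KO array 2 read 262 and WT array 2 read 415, while KO arrays 1 and 3 and WT array 1 read 39.3, 25.6 and 27.1. Hence the direction for Ccnd2 depended on the probe set, and none of the 7 passed in any of the 4 comparisons.

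**Figure D3:**
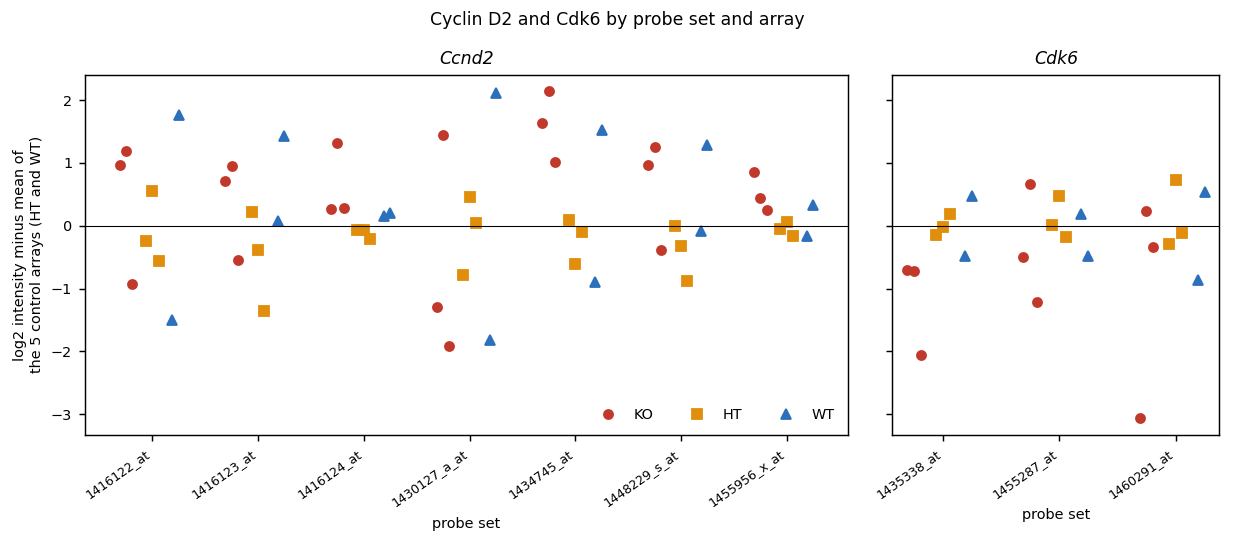
Log2 intensity minus the mean of the 5 control arrays for each probe set of Ccnd2 (left) and Cdk6 (right). Circles are KO, squares HT and triangles WT arrays. On 1430127_a_at the KO arrays lie on both sides of 0, and on 1435338_at all KO arrays lie below all control arrays.

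Cyclin D1 (Ccnd1) was dim, and its 3 probe sets disagreed in direction. On 1417419_at it read 12.1, 49.7 and 9.33 linear units in KO cells, 7.0, 7.38 and 5.76 in HT cells and 7.25 and 7.73 in WT cells, with all KO arrays above all control arrays. On 1448698_at it read 8.44, 16.9 and 5.72 in KO cells, 14.7, 16.4 and 15.6 in HT cells and 21.8 and 19.4 in WT cells, with KO arrays 1 and 3 below all control arrays. KO minus all controls was 1.35 ± 0.50 on the first (limma, adjusted p = 0.370) and -0.89 ± 0.33 log2 units on the second (adjusted p = 0.373). On the first, HT array 3 and WT array 2 lay below their own background, so the size of that difference is uncertain. KO arrays 1 and 3 lay below their own background on the second. It passed without KO array 2 (adjusted p = 0.0420), a call that rests on those unmeasured levels, so no size is given for it. On the brightest probe set, 1417420_at, the difference was 0.09 ± 0.36 (adjusted p = 0.933), with an interval of -0.74 to 0.92.

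Cyclin D3 (Ccnd3), a D-type cyclin widely used in blood cells, was measured well by 1 of its 3 probe sets. On 1415907_at it read 311, 335 and 640.0 linear units in KO cells, 283, 334 and 295 in HT cells and 171 and 2289.6 in WT cells. The WT arrays differed from each other by more than any KO array differed from any HT array. KO minus HT was 0.42 ± 0.88 log2 units (limma, adjusted p = 0.847, interval -1.67 to 2.51). KO minus WT was -0.62 ± 0.98 with both WT arrays (adjusted p = 0.911) and 1.25 without WT array 2. The other Ccnd3 probe sets were at background on 8 and on 6 of the 8 arrays.

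Cdk4 is the partner of the D-type cyclins found in most cells, and its 3 groups overlapped on each of its 3 probe sets. On 1422441_x_at, the brightest of 3 probe sets, it read 404, 754 and 549 linear units in KO cells, 803, 591 and 688 in HT cells and 549 and 935 in WT cells. KO and HT cells differed by -0.32 ± 0.30 log2 units (limma, adjusted p = 0.654), and the 95% interval of KO minus HT ran from -1.03 to 0.39. On 1422439_a_at the KO arrays read 538, 521 and 530.3 linear units, the HT arrays 794, 503 and 613 and the WT arrays 466 and 804. The 3 KO values lay close together and inside the range of the controls.

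The Cdk4 window is shown because it carries the E-box CACGTG, bound by Myc and related factors, 4 times. It is chr10:127063285-127063534 on the plus strand of GRCm38.p6, from RefSeq, with each E-box in capitals.
Cdk4: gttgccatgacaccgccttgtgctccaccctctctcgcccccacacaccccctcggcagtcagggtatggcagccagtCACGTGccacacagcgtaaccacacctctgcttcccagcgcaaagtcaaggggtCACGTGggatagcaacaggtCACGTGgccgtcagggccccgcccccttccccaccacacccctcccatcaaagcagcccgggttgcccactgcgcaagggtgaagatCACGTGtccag
The E-box reads the same on both strands. At least 1 copy was in 6.02% of all windows and 4 or more were in 7 of them (0.0213%). Myc, which was measured by its brightest probe set, read 386, 455 and 469 linear units in KO cells, 464, 340.2 and 389 in HT cells and 324 and 239 in WT cells. Myc differed by 0.14 ± 0.19 log2 units in KO minus HT and by 0.64 ± 0.21 in KO minus WT (limma, adjusted p = 0.752 and 0.482), and no link between the 2 genes was tested.

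Cdk6, the second kinase for D-type cyclins and the one most used in haematopoietic cells, had lower mean levels in KO than in HT cells on its 3 probe sets, none of which passed. On 1435338_at it read 112, 110.4 and 43.8 linear units in KO cells, 164, 179 and 208 in HT cells and 130.1 and 253 in WT cells. All KO arrays lay below all control arrays, and KO minus all controls was -1.16 ± 0.35 log2 units (limma, adjusted p = 0.279). On the brightest probe set, 1455287_at, the KO arrays read 144, 323 and 87.8, the HT arrays 206, 282 and 179.8 and the WT arrays 232 and 146. KO array 2 was the highest of the 8 arrays there, and the difference from all controls was -0.35 ± 0.41 (adjusted p = 0.757). On 1460291_at KO array 1 stood apart at 9.84 linear units, against 65.0 and 97.1 on the other KO arrays.

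Cdk2, the kinase of cyclin E, read 16.5, 29.0 and 13.9 linear units in KO cells, 29.2, 30.5 and 42.6 in HT cells and 66.8 and 30.5 in WT cells on 1416873_a_at. All KO arrays lay below all control arrays, though KO array 2 (29.0) and HT array 1 (29.2) were nearly equal. KO minus all controls was -1.01 ± 0.35 log2 units, with KO at 4.24 ± 0.55 (SD, n = 3) and controls at 5.24 ± 0.51 (SD, n = 5), which did not pass (limma, adjusted p = 0.339). It had the smallest unadjusted p among the members' brightest probe sets in that comparison (0.0207). The genes nearest to Cdk2 in level over the 8 arrays were Maz (Pearson r 0.961), Dhrs1 (0.961) and Cog2 (0.950). Maz encodes a zinc finger transcription factor and Cog2 a subunit of a Golgi tethering complex. The second Cdk2 probe set, 1447617_at, was at background on all 8 arrays.

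**Figure D4:**
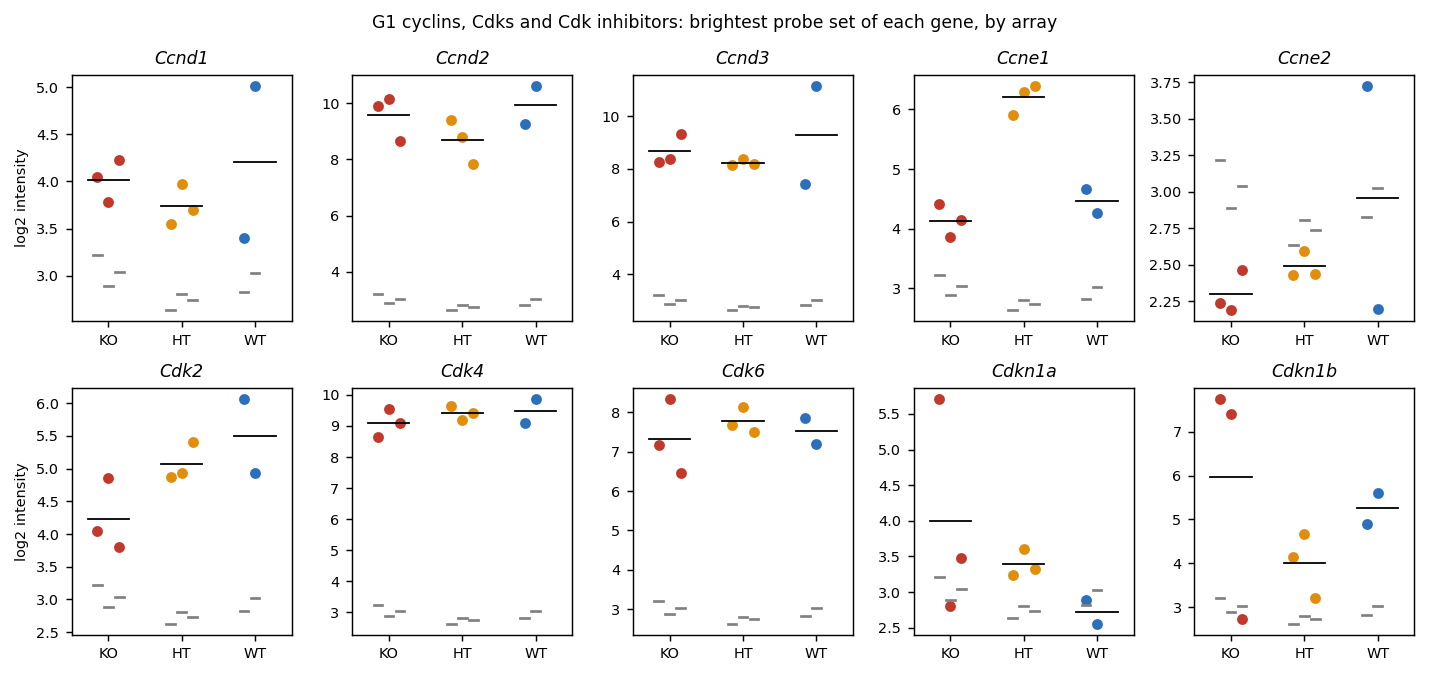
Log2 intensity of the brightest probe set of each member on every array, with KO, HT and WT from left to right. Points are mice, black lines are group means and short grey lines mark the background of each array. The vertical scale differs between panels. Only the Ccne1 panel shows HT arrays above all others, and the Cdkn1a and Cdkn1b panels show KO arrays spread widely.

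By brightest probe set the inhibitors varied widely among KO mice. Cdkn1b (p27), which restrains cyclin E with Cdk2 in resting cells, read 214, 169 and 6.69 linear units in KO cells, 17.8, 25.6 and 9.30 in HT cells and 29.9 and 48.5 in WT cells on 1419497_at. KO arrays 1 and 2 were above all controls, and KO array 3 was below all of them and below its own background. The KO standard deviation was 2.79 log2 units, against 0.74 in HT. KO minus HT was 1.95 ± 1.30 log2 units (limma, adjusted p = 0.566) and 3.55 without KO array 3 (adjusted p = 0.0520). On the other Cdkn1b probe set, 1434045_at, KO array 1 read 36.7 linear units and the other KO arrays 15.9 and 15.1, against 14.7 to 18.5 in HT and 17.1 and 13.6 in WT cells. High Cdkn1b on both probe sets was thus a feature of KO array 1 and not of array 2.

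Cdkn1a (p21), the inhibitor induced by p53, was near background. On 1421679_a_at it read 52.3, 6.96 and 11.2 linear units in KO cells, 9.46, 12.1 and 9.997 in HT cells and 7.38 and 5.89 in WT cells. KO array 1 alone was high, and KO array 2 was below its background. KO minus WT was 1.28 ± 0.77 log2 units (limma, adjusted p = 0.773) and 0.42 without KO array 1. Against HT the difference was 0.61 ± 0.69 (adjusted p = 0.709) and -0.25 without that array. On 1424638_at the high arrays were KO array 2 (20.6) and HT array 3 (23.5), and KO array 1 read 6.05, so the probe sets disagreed on which mouse was high.

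RefSeq holds 2 start sites for Cdkn1a, and the window of the upstream one is shown because it holds a match to the letters of the p53 core, written as a pair. It is chr17:29090729-29090978 on the plus strand of GRCm38.p6. The capitals mark the match to CATGNNNNNNCATG, in which N is any base, which reads the same way on both strands.
Cdkn1a: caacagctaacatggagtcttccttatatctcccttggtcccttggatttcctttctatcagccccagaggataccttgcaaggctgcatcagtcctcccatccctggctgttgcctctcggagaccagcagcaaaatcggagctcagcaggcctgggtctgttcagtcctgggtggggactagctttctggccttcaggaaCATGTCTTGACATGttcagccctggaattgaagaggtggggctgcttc
The match lies 48 to 35 bases before that start, and 0.490% of all windows held one. The window of the downstream start held none. As a measure of other p53-induced transcripts, 8 of 10 listed genes were analysed here. In KO against all controls 0 rose and 1 fell past the threshold (0.329% and 0.253% of all probe sets). It was Ccng1, cyclin G1, at -1.03 ± 0.16 log2 units (limma, adjusted p = 0.0399). Ccng1 read 127, 124 and 130.4 linear units in KO cells, 285, 291 and 209 in HT cells and 221 and 304 in WT cells, with no overlap. That call held in 3 of 18 alternatives (adjusted p 0.0340 to 0.698), and with the mean of its probe sets the difference was -0.24. By unadjusted p under 0.05, 3 of the same 8 genes were higher (Bbc3, Pmaip1 and Sesn2; 4.86% of all probe sets) and 1 lower (Ccng1; 6.66% of all probe sets), and the list median was 0.20, against 0.035 over all probe sets. Sesn2, which encodes the stress-induced protein sestrin 2, read 18.5, 66.5 and 57.2 linear units in KO cells, 7.83, 9.002 and 12.8 in HT cells and 7.80 and 9.55 in WT cells, with all KO arrays above all control arrays. It had the widest difference of the list, 2.16 ± 0.41 log2 units, which did not pass (limma, adjusted p = 0.0873). Mdm2, the ubiquitin ligase that p53 induces against itself, differed by 0.58 ± 0.32 (adjusted p = 0.533).

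The rest of the pathway was read from a list of 53 genes, of which 50 were analysed here. In KO against all controls 0 of the 50 passed in either direction, with 0.329% of all probe sets higher and 0.253% lower. Before adjustment limma put 0 higher and 16 lower with a p under 0.05 (4.86% and 6.66% of all probe sets), and the median was -0.42 log2 units, against 0.035 over all probe sets. In KO against HT none passed, 0 were higher and 11 lower unadjusted (6.81% of all probe sets lower), and the median was -0.47, against 0.066 over all. In KO against WT none passed, 3 were higher and 9 lower unadjusted (7.63% of all probe sets, of which 2.63% higher), and the median was -0.34, against 0.0057 over all. In HT against WT none passed, 3 were higher and 0 lower unadjusted (2.59% of all probe sets higher), and the median was 0.24, against -0.055 over all. The KO comparisons share arrays. The 50 genes were read by their brightest probe sets, whereas the percentages and medians of all probe sets include those at background. The upper quartile of log2 intensity over all probe sets was lower on KO arrays 1 and 3 than on every control array. That of KO array 2 lay among the control arrays. How far probe sets above background in general share the lower KO values of this list was not tested.

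The 4 of these genes with the smallest p in KO against all controls were E2f6, Ccna2, Cks1b and Tk1. On each of them all KO arrays lay below all control arrays, as on 4.30% of all probe sets. The 4 genes were picked by p in the same comparison, so this is a description and not support. E2f6, a repressive member of the E2F family, read 15.2, 40.7 and 19.4 linear units in KO cells, 152, 89.8 and 78.2 in HT cells and 76.9 and 68.2 in WT cells. Its difference was -1.96 ± 0.37 log2 units (limma, adjusted p = 0.0873). Ccna2, the cyclin A that follows cyclin E in S phase, read 107, 286 and 224 in KO cells, 659, 519.9 and 551 in HT cells and 507 and 441 in WT cells, a difference of -1.48 ± 0.31 (adjusted p = 0.110). Cks1b, which helps the ubiquitin ligase Skp2 mark p27 for destruction, differed by -1.07 ± 0.24 (adjusted p = 0.134). Tk1, thymidine kinase and an E2F target, differed by -2.03 ± 0.48 (adjusted p = 0.158). With quantile normalization the differences were smaller, at -1.74 for E2f6, -1.30 for Ccna2, -0.87 for Cks1b and -1.86 for Tk1.

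By role, 6 of the 8 medians in KO against all controls lay below that of all probe sets. They were -0.65 for 13 E2F target genes (6 lower and 0 higher unadjusted, 6.66% and 4.86% of all probe sets) and -1.21 for 4 next phase cyclins and kinase. They were -0.90 for 4 genes of p27 and cyclin E turnover and -0.91 for the Cdk-activating kinase with Cdc25a and Wee1 (5 genes). Skp2, the ligase subunit that recognises p27, lay farthest below 0 in the whole list, at -2.35 ± 0.71 log2 units (limma, adjusted p = 0.271), with KO array 2 among the control arrays. Fbxw7, the 1 gene of the turnover list above 0, differed by 1.10 ± 0.59 (limma, adjusted p = 0.515). Of the next phase list, Cdk1 read 66.7, 109 and 1181 linear units in KO cells and 287 to 511 on control arrays. Each of the 6 lists with a median below that of all probe sets also held genes above 0. All probe sets include those at background, so the limit given for the whole list holds for these medians too. The 10 E2F and DP factors had a median of -0.34, with Tfdp1, the partner of most E2Fs, at -2.14 ± 0.54 (limma, adjusted p = 0.188). The 3 pocket proteins had one of -0.12. Among them Rb1, the retinoblastoma protein itself, differed by -0.94 ± 0.26 (adjusted p = 0.243) and Rbl1 by 0.29 ± 0.52 (adjusted p = 0.846). The 5 other Cdk inhibitors had a median of 0.088 and the 6 upstream regulators one of 0.23. The 10 members by their brightest probe sets had a median of -0.17, with 5 above and 5 below 0, the fitted value of Ccne2 included.

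**Figure D5:**
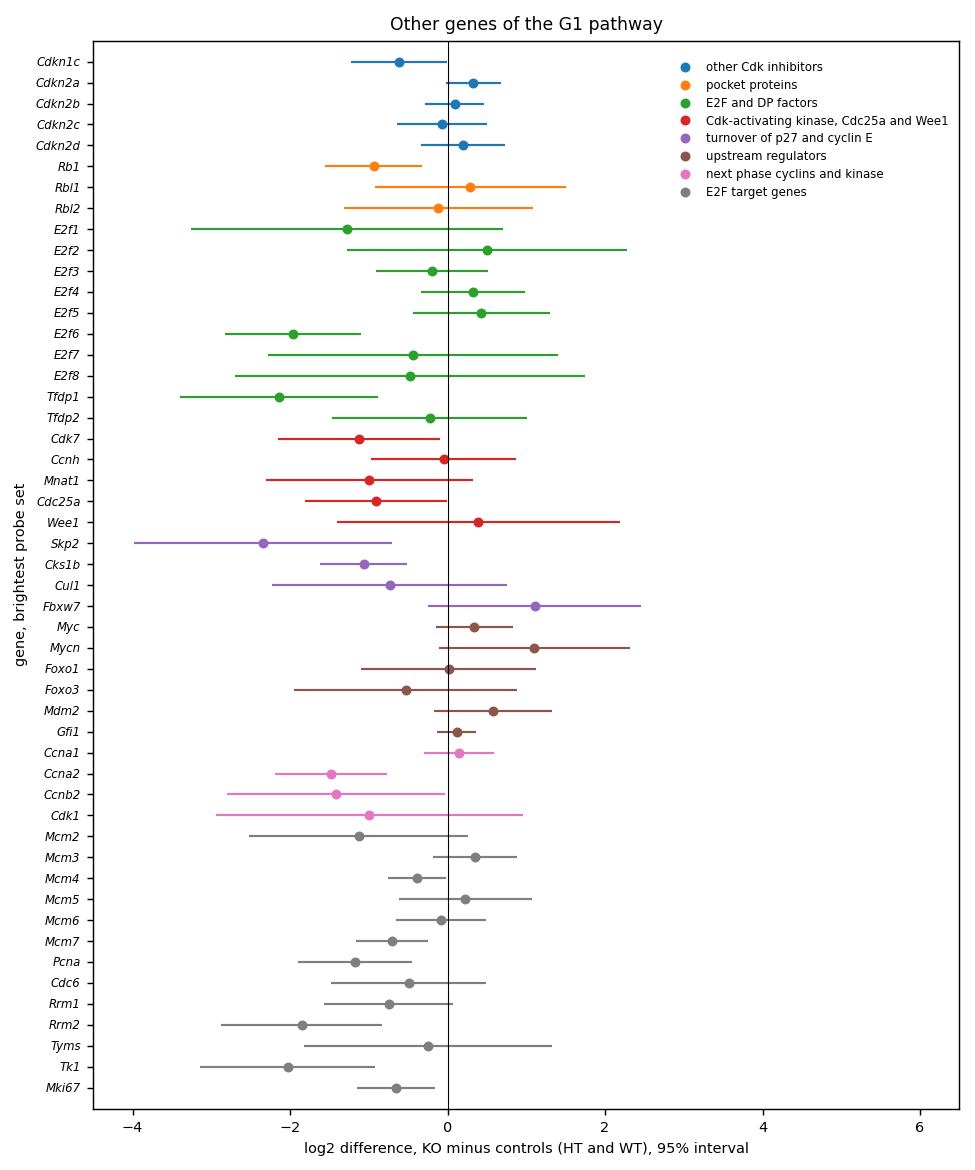
Log2 difference between KO and the 5 control arrays, with its 95% interval, for the 50 other pathway genes by brightest probe set, coloured by role. None passed the threshold. Skp2 (-2.35), Tfdp1 (-2.14) and Tk1 (-2.03) lie farthest below 0.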

How the data were processed

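Transcript levels were measured on 8 one-colour arrays of sorted fetal liver cells, 3 KO, 3 HT and 2 WT, grouped by title. The authors deposited a linear intensity for each probe set, summarised with RMA per the submitters' processing notes, whose version was not found. Log2 was taken of the deposited values with no pseudocount. Of 45101 probe sets 64 controls were left out. The platform annotation gave 34945 probe sets 1 gene, 932 several and 9160 none. Symbols of 34741 were matched by gene number to RefSeq (GRCm38.p6).

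Groups were compared with limma 3.58.1 on R 4.3.3 (lmFit, eBayes). KO minus HT, KO minus WT and HT minus WT came from a model of all 3 groups (5 residual degrees of freedom), and KO minus all controls from one of 2 groups (6). Tests were two-sided, and Benjamini-Hochberg adjustment ran over the 45037 tested probe sets, with 0.05 as the threshold. The brightest probe set of a gene has the highest mean log2 value over 8 arrays. The method was tested on simulated data. Members and lists were chosen with earlier results of these data known. Named were all members, the 4 pathway genes of smallest p, any past the threshold, and the 3 genes most like the member of smallest p. Bbc3, Cdk1, Fbxw7, Mdm2, Myc, Pmaip1, Rb1, Rbl1, Sesn2, Skp2, Tfdp1, marker genes and the genes like Ccne1 were named after their values were seen. Alternatives changed normalization, pseudocount, filters, spread model, covariate, probe set choice and arrays. Replicates are mice numbered in the order of deposit, and nothing says whether they share a litter or a day. Lymphoid, granulocyte, and endothelial and stromal markers were also listed, and none passed in any comparison.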

Additional observations from a re-analysis of the deposited data

Results flagged for a closer look

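On 2 of the 28 member probe sets 1 of the 5 control arrays stood far from the other 4, by Dixon's test at the 95% level, a test that flags about 1 group in 20 by chance. For Ccnd3 on 1415907_at, WT array 2 read 2289.6 linear units and the other control arrays 171 to 334. Its gap to the next array was 0.741 of the whole range on the log2 scale. For Ccne2 on 1422535_at, WT array 1 read 13.2 and the other control arrays 4.57 to 6.04, a gap of 0.737 of the range.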

How the results depend on the processing

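The count of member probe sets past the threshold in KO against HT was 2 as reported, and 1 with quantile normalization, cyclic loess, the intensity trend, the sex covariate, the brightest probe set per gene or the mean of probe sets per gene. The last pair tests 1 value per gene. Without each array in turn it ran from 0 (without HT array 1 or 3) to 2. In KO against all controls it was 0 as reported and 0 to 1 without each array in turn (1448698_at of Ccnd1 without KO array 2, with both remaining KO arrays below background), and in KO against WT and HT against WT it was 0 under all alternatives. Where a WT array was left out, the lone one was assumed to vary like the other groups. Causes were not tested.

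Some differences that did not pass changed direction. With cyclic loess Cdk6 differed by 0.0037 log2 units in KO minus controls and 0.053 in KO minus WT, and Cdk4 by 0.042 in KO minus HT. Ccnd3 in KO minus controls was -0.025 with the pseudocount of 32, -0.047 with the sex covariate and -0.10 with the mean of probe sets, which put Ccnd2 at 0.19 in KO minus WT. With the sex covariate HT minus WT was 0.056 for Cdk4 and -0.081 for Cdkn1a. Without each array in turn, KO minus controls ran from -0.039 to 0.37 for Ccnd1, -0.33 to 0.63 for Ccnd3 and -0.86 to 0.081 for Cdk6. KO minus HT ran from -0.25 to 1.21 for Cdkn1a. KO minus WT ran from -0.997 to 0.62 for Ccnd1, -1.05 to 0.30 for Ccnd2, -2.50 to 1.25 for Ccnd3, -0.76 to 0.0042 for Cdk4, -0.71 to 0.23 for Cdk6 and -0.18 to 2.32 for Cdkn1b. HT minus WT ran from -1.28 to 0.34 for Ccnd1, -2.92 to 0.83 for Ccnd3, -0.99 to 0.14 for Cdk2, -0.44 to 0.33 for Cdk4 and -0.087 to 0.58 for Cdk6. E2f6 in KO minus controls passed with the mean of probe sets (adjusted p = 0.0316) and without KO array 2 (0.0218), Ccna2 without KO array 2 (0.0404) and Tk1 without KO array 3 (0.0337). Alternatives for these 3 genes, Cks1b and Ccng1 were added after seeing the data. No paired analysis was possible because the titles give each mouse a number of its own. Ccne2, above background on 1 of 8 arrays, has no measured change, and no alternatives are given for it.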
